A study of Oryza sativa Indica Group with 9 samples.

Results

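The new candidate miRNAs of heat-stressed rice leaves are the mature sequences that the submitters predicted from their own small RNA reads and could not place in a known family. They were taken as every distinct sequence whose name begins with PC- in the submitters' table of such predictions, which gave 73 of the 483 distinct sequences listed in all. Known rice miRNAs made up 289 of the list and miRNAs conserved in other plants 118, and 3 sequences stood in neither table nor among the candidates. The candidates' predicted targets were all 65 rows of the submitters' degradome table for them, which pair 22 candidates with 47 loci.

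Leaves came from three-leaf seedlings of HT54, a heat-tolerant Indica breeding line, grown at 25 °C under 13 h of light and 11 h of darkness. They were taken after 0 h, 12 h or 24 h of heat shock at 45 °C. Each time point has 2 small RNA libraries, numbered replicates 1 and 3 and described as independent samples, and 1 degradome library. The submitters left 1 further small RNA library per time point out as unsuitable, so the spread between those that remain may be smaller than that of all. Leaves kept unheated for 12 or 24 h are not analysed here, so heat and elapsed time cannot be told apart.

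A plant miRNA is cut from a folded single-stranded precursor by a Dicer-like enzyme, which releases a duplex of the 5′ arm and the 3′ arm with short 3′ overhangs. It then guides an Argonaute protein to complementary transcripts, which are typically cut opposite base 10 of the guide. The canonical product is 21 nt long and often begins with uracil, whereas small RNAs of 24 nt beginning with adenine are typical of the pathway that directs DNA methylation, and rice also makes 24-nt miRNAs. A degradome library sequences the 5′ ends left by cleavage of polyadenylated RNA, so a peak of reads at the predicted position is the usual evidence for a target.

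The sequences below carry the results that follow. All are given 5′ to 3′ in DNA letters as listed by the authors, with bases 2 to 8, the seed, in capitals. The first set holds 2 groups of related sequences from chromosomes 10 and 2, with no run of 14 or more bases shared between the groups. They are shown because members of a group share a seed or overlap one another, and because they include several of the most abundant candidates. PC-5p-47273_96, PC-3p-85855_35 and PC-3p-68026_54 have the same seed, and PC-5p-212202_7 is largely their reverse complement.
PC-5p-47273_96: tTTTTCTAccacactttaga
PC-3p-85855_35: tTTTTCTAccacactttaa
PC-3p-68026_54: tTTTTCTAccacacttta
PC-5p-212202_7: aAAGTGTGgtagaaaaaactatatg
PC-5p-195376_8: gAATAGAAatagaaagaatagaaaa
PC-3p-53246_81: aTAGAAATagaaagaatagaaaga
PC-5p-62587_63: tATAGAAAtagaaagaatagaaaga
PC-5p-111336_20: gAAATAGAaagaatagaaaat

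The next set holds candidates that resemble listed rice miRNAs or have degradome reads at neighbouring sites. PC-3p-66728_56 shares its seed with osa-miR1862d and matched it at 21 of 24 bases end to end. PC-3p-55618_76 matched PC-3p-66728_56 at 17 of 18 overlapping bases, from base 1 of the first and base 7 of the second. PC-3p-50578_87 shared a run of 21 bases with the listed variant osa-miR1429-3p_L-1R+1, which begins at base 2 of the candidate.
PC-3p-66728_56: aCTAGGTTgctatattttgggacg
osa-miR1862d: aCTAGGTTtgtttattttgggacg
PC-3p-55618_76: tTGCTATGttttgggacggag
PC-3p-50578_87: gTTGCACGggtttgtatgttgcag
osa-miR1429-3p_L-1R+1: tTGCACGGgtttgtatgttgc

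The last set holds the most abundant candidate, the 2 with the smallest p at 12 h against 0 h, and a pair of arms whose stems match in the deposited fold.
PC-3p-38054_125: gTTCATTTagttgaattagagtgg
PC-3p-92184_30: aCAAGATTttttacatggttgtgt
PC-5p-120319_18: aTTTACTTgcatgacaatagagag
PC-5p-189822_8: aAGAACTTtatgttggcactgact
PC-3p-129227_15: tCAATGGCgacataaagttct

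Among the candidates 24 nt was the commonest length and adenine the commonest first base, whereas 21 nt and uracil led among the known miRNAs of the same list. Of the 73 candidates, 42 (57.5%) were 24 nt and 16 (21.9%) were 21 nt long, against 93 (32.2%) and 134 (46.4%) of the 289 known rice miRNAs. Among the 118 conserved miRNAs 10 (8.47%) were 24 nt and 32 (27.1%) were 21 nt. The first base was adenine in 42 candidates (57.5%) and uracil in 21 (28.8%), against 34.6% and 43.6% of the known miRNAs. Within one length the candidates and the known rice miRNAs were closer, but the conserved miRNAs were not. Of the conserved miRNAs, adenine opened 4 of 10 of 24 nt (40%) and uracil 14 of 32 of 21 nt (43.8%). Adenine opened 34 of 42 candidates of 24 nt (81.0%) and 65 of 93 known miRNAs of 24 nt (69.9%), while uracil opened 11 of 16 candidates of 21 nt (68.8%) and 81 of 134 known miRNAs of 21 nt (60.4%). The candidates were also poorer in guanine and cytosine, with a median of 37.5% against 47.6% for known and 47.8% for conserved sequences. The submitters' own prediction criteria chose these sequences, so the make-up is given as a description without a test.

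**Figure D1:**
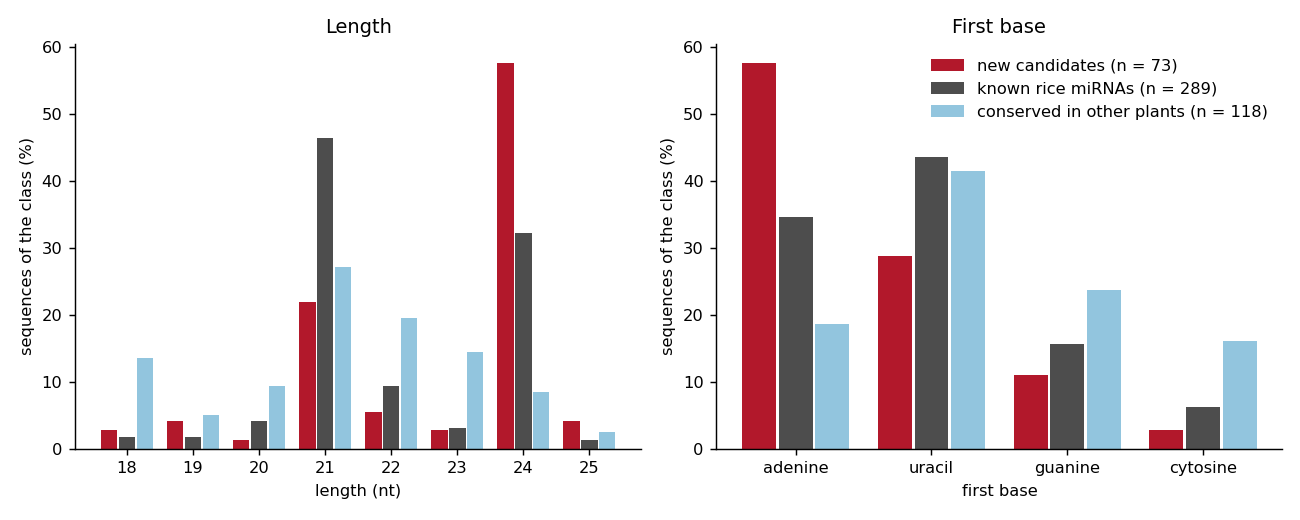
Share of each class of listed sequences (%, bars) by length in nt (left) and by first base (right), for 73 new candidates, 289 known rice miRNAs and 118 miRNAs conserved in other plants. Candidates peak at 24 nt and adenine (57.5% each), known miRNAs at 21 nt (46.4%) and uracil (43.6%).

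The candidates came from 64 precursors of 64 to 263 bases (median 195 over the 77 candidate and precursor rows) on chromosomes 1 to 8 and 10 to 12 and on 1 sequence named Sy. Chromosome 2 gave 11 candidates, chromosomes 3 and 10 gave 10 each, and chromosome 4 gave 9. No source used here gives the build behind these coordinates, and no gene annotation is paired with them. The 5′ arm gave 37 candidates and the 3′ arm 36. The deposited minimal folding free energy index, which scales folding energy to length and base composition, lay between 0.9 and 2 with a median of 1.1. The median was 1 for known miRNAs (−0.2 to 2.5) and 0.7 for conserved ones (0.1 to 1.9). Since prediction criteria chose the candidates, this does not rank their hairpins against the others. Of the 73 candidates, 47 matched a deposited precursor at every base and 26 differed from it at 1 base. One of these was PC-3p-85855_35 with T19A, where the precursor's base stands first and positions count from the candidate's 5′ end.

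Both arms were listed for 13 precursors, the arrangement most like a processed duplex. Only some of these pairs lay opposite each other in the deposited fold. The pair from chr6:20027827-20028016 on the minus strand, PC-5p-121551_17 and PC-3p-79062_41, had 21 bases paired with each other, with 3′ overhangs of 1 base on each side. The pair from chr3:23382866-23383065, PC-5p-189822_8 and PC-3p-129227_15, had 19 paired bases and overhangs of 2 bases for the 5′ arm and −1 for the 3′ arm, which means that the 3′ arm ended 1 base short. PC-5p-212202_7 had 17 bases paired with PC-3p-85855_35 on chromosome 10 and 17 with PC-3p-68026_54 on chromosome 2, where its own 3′ end overhung by 8 bases. PC-5p-71402_50 and PC-3p-112011_20 on chromosome 7 had 12 bases paired, but their 3′ ends stopped short of the partner's 5′ end, giving overhangs of −12 for the 3′ arm and −9 for the 5′ arm. In the other 8 precursors 0 to 2 bases of the arms paired with each other, and in 2 of these the arms overlapped in the precursor itself, by 23 and by 7 bases.

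The precursor at chr3:23382866-23383065 (minus strand) is shown because it held 3 of the candidates, with the arms PC-5p-189822_8 and PC-3p-129227_15 in capitals. Its bases 100 to 120 are the whole of PC-3p-50006_89, a 21-nt candidate listed for an overlapping precursor on the other strand, and PC-3p-129227_15 follows directly at bases 121 to 141. The reverse complement of PC-3p-50006_89 also stands in the opposite arm, at bases 38 to 58.
Precursor of PC-5p-189822_8: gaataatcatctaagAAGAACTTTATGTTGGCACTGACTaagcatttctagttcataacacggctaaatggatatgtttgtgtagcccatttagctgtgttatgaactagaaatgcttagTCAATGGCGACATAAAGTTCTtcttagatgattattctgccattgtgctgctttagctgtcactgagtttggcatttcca
The precursor at chr10:10823881-10824095 (minus strand) is shown because 4 candidates fall in it. PC-5p-212202_7 and PC-3p-85855_35 are in capitals, PC-3p-68026_54 matched bases 121 to 138, and PC-5p-47273_96 matched the other strand at bases 87 to 106.
Precursor of PC-3p-85855_35: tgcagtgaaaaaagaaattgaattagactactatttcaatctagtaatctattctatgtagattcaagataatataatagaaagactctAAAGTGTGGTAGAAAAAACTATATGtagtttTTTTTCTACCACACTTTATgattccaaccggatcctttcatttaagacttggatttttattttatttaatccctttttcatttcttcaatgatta

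Such overlaps were frequent, so the 73 sequences are fewer independent loci than their number. Runs of at least 14 shared bases, on either strand, joined 24 candidates into 9 groups and tied 9 candidates to listed known miRNAs, among them miR814, miR1862, miR5788 and miR1429. The other 43 had no such run with either, which does not make them unrelated. PC-3p-66728_56 and PC-3p-55618_76, whose matches with mismatches are given above, are among them. So is PC-3p-50006_89, which lies whole in the precursor of other candidates. PC-3p-90458_31 and PC-3p-122643_17 were the same sequence shifted by 1 base, and PC-5p-38660_123 and PC-5p-67027_56 shared 23 bases. PC-3p-53246_81 lay entirely within PC-5p-62587_63 (24 shared bases). PC-5p-45539_100 and PC-5p-65661_58 shared 21 bases. How reads were split between such near-identical candidates cannot be recovered from the table, so the levels of members of one group are uncertain. Members of a group are not replicates of each other.

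The listed sequences held 10315 to 227970 rounded reads per small RNA library, with 12 h replicate 3 the lowest. These are sums over the list and not sequencing depths. In that library 41 of the 73 candidates had fewer than 3 reads and 8 had none, and 1 read corresponded to 64.8 CPM (listed reads scaled to a common total after TMM normalization). In the other libraries 0 to 21 candidates had fewer than 3 reads. Intervals and floors here cover counting error only.

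All candidates were of low to middling abundance. Their mean level over the 6 libraries had a median of 135 CPM and ran from 53.5 to 700 CPM, against medians of 284 CPM for known and 314 CPM for conserved miRNAs. None of the 73 candidates reached a mean of 1000 CPM, whereas 79 of 289 known and 32 of 118 conserved miRNAs did. The highest, PC-3p-38054_125 from chromosome 12, ranked number 127 in the whole list. It had 365 and 372 CPM in 0 h leaves, 757 and 908 CPM in 12 h leaves, and 1228 and 568 CPM in 24 h leaves (replicates 1 and 3). Both heated groups lay above both 0 h libraries, with log2 changes of 1.15 ± 0.75 after 12 h and 1.27 ± 0.73 after 24 h (SE), and neither passed edgeR's quasi-likelihood test (adjusted p = 0.468 and 0.298). Without 24 h replicate 1 the later change was 0.60.

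PC-3p-53246_81, the second most abundant, had 730 and 1155 CPM in 0 h leaves, 716 and 64.8 CPM in 12 h leaves, and 397 and 1007 CPM in 24 h leaves. Its value in 12 h replicate 3 was a single read, and the 24 h libraries fell on either side of the lower 0 h library. PC-3p-29037_167, which shares its seed with a listed variant of the wheat miRNA miR9774, had 339 and 401 CPM in 0 h leaves, 1027 and 324 CPM in 12 h leaves, and 590 and 825 CPM in 24 h leaves. Here both 24 h libraries were above both 0 h libraries, and the 12 h libraries enclosed them. PC-5p-47273_96 had 417 and 907 CPM in 0 h leaves, 784 and 195 CPM in 12 h leaves, and 132 and 943 CPM in 24 h leaves. Its time points overlapped fully. In whole leaves, fewer cells with a miRNA and less of it per cell cannot be told apart. PC-5p-212202_7, PC-3p-68026_54, PC-3p-85855_35 and PC-3p-341953_4 from the same regions likewise had their lower 24 h value in replicate 1 and their higher one in replicate 3.

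**Figure D2:**
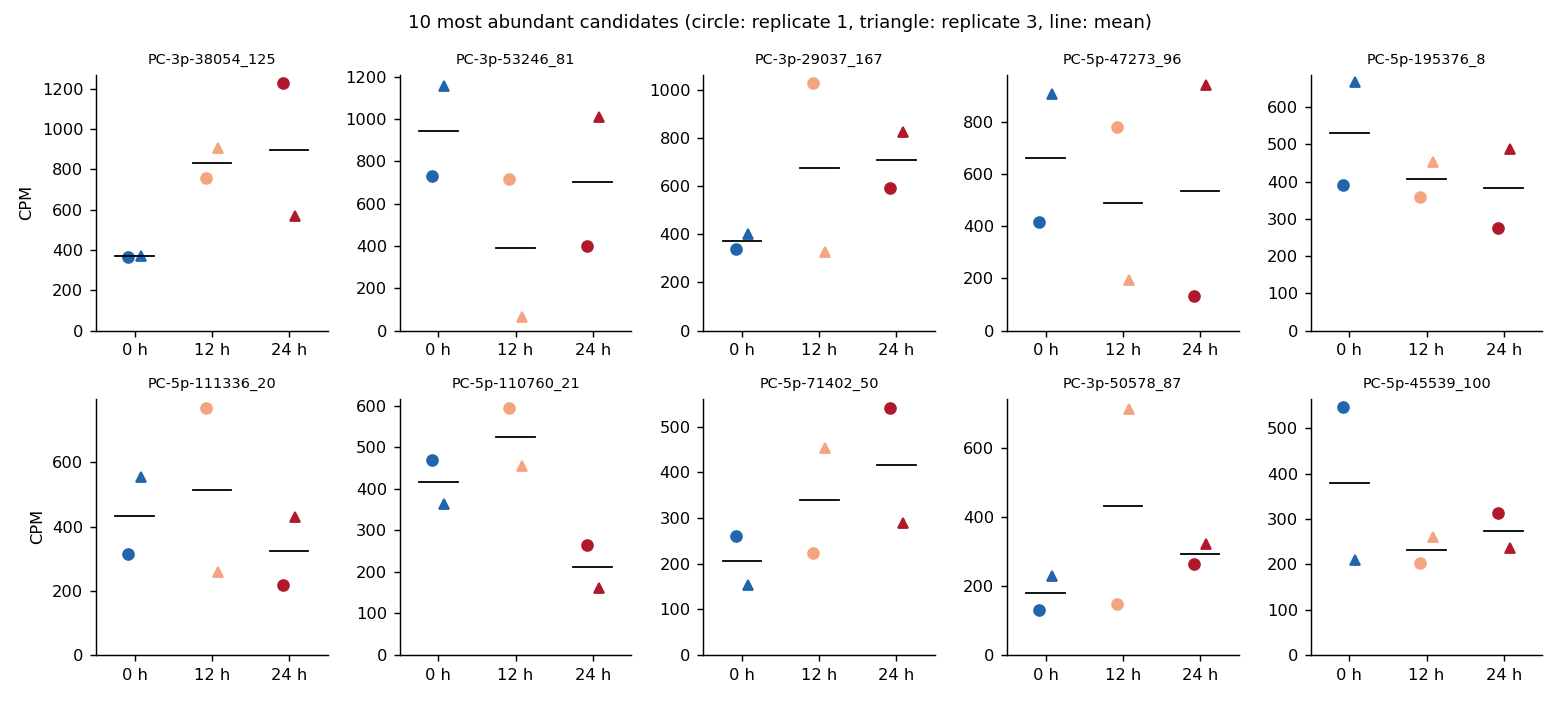
Level in CPM (vertical axis, from 0) of the 10 most abundant candidates at 0, 12 and 24 h of heat shock; circles are replicate 1, triangles replicate 3 and lines the mean of the 2 libraries. PC-3p-38054_125 lies higher in all 4 heated libraries (568 to 1228 CPM) than in the 0 h libraries (365 and 372 CPM), while PC-5p-47273_96 spreads from 132 to 943 CPM within 24 h.

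Candidates together held 1.43 and 1.30% of listed reads in 0 h leaves, 1.54 and 1.91% in 12 h leaves and 0.863 and 1.04% in 24 h leaves. The means were 1.73 ± 0.26% at 12 h and 1.36 ± 0.09% at 0 h, and 0.952 ± 0.12% at 24 h against that same 0 h value (SD, n = 2 libraries each). Both 12 h libraries were above and both 24 h libraries below both 0 h libraries, and each comparison gave p = 0.333 in a 2-sided exact permutation test, the smallest p that 2 libraries against 2 allow. The 24 h difference depends on the total. With the 3 most abundant listed sequences taken out of it, candidates held 1.77% at 24 h and 1.73% at 0 h (exact permutation p = 1), whereas the 12 h share stayed higher, at 2.36% against 1.73% (exact permutation p = 0.333). Sequences of 23 or 24 nt held 57.6 ± 15.1% of candidate reads at 12 h and 54.8 ± 11.6% at 24 h, against 51.9 ± 7.4% at 0 h. These differences were smaller than the spread within a time point (exact permutation p = 0.667 and 1), and their direction turned when single libraries were left out.

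Which candidates responded to heat was asked with edgeR's quasi-likelihood test over the whole list, with all 6 libraries in 1 fit and p-values adjusted over the 459 sequences with 10 reads or more in 2 or more libraries. Of the 73 candidates 65 passed that filter, and the 8 that did not are PC-5p-220796_7, PC-5p-289499_5, PC-5p-139829_13, PC-5p-148331_12, PC-5p-424393_3, PC-3p-132721_15, PC-5p-319868_4 and PC-5p-307882_5. No candidate passed an adjusted p of 0.05 at 12 h against 0 h, where 3.27% of all tested sequences did, at 24 h against 0 h, where 9.59% did, or at 24 h against 12 h, where 0.218% did. Unadjusted p-values under 0.05 were found for 2, 3 and 1 candidates in those comparisons, beside 13.3%, 22.4% and 7.84% of all tested sequences. DESeq2 called none of the candidates to which it gave an adjusted p, with 1, 1 and 0 candidates at an unadjusted p under 0.05. Those were all 65 at 12 h against 0 h and at 24 h against 12 h, but 29 of 65 at 24 h against 0 h. A biological coefficient of variation of 0.468 and few reads per candidate limit what could be seen, and a p that misses the threshold does not show that a candidate was stable.

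As a group the candidates had a higher median change than the whole list at 12 h, though not in every length or first-base class. Their median log2 change at 12 h against 0 h was 0.38 against −0.03 for all 459 sequences, which include the candidates. Of the candidates, 46 were positive and 19 negative. Conserved miRNAs had a median of −1.06 and known ones of 0.11. At 24 h against 0 h the candidates' median was −0.05, beside 0.00 for all, with 31 positive and 34 negative. At 24 h against 12 h it was −0.23, beside 0.01 for all, with 23 positive and 42 negative. By length, the 12 h median was 0.48 for the 37 tested candidates of 23 or 24 nt, 0.34 for the 21 of 20 to 22 nt and −0.45 for the 7 of other lengths. By first base it was 0.51 for adenine (36 tested), 0.01 for uracil (19), 0.66 for guanine (8) and 0.59 for cytosine (2). The 12 h and 24 h comparisons share the 0 h libraries. These medians are descriptions, and scaling shifts them: dividing by the authors' library constants moved the median of all sequences to −0.21 at 12 h and that of the candidates to 0.21, which leaves the distance between them at 0.43.

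**Figure D3:**
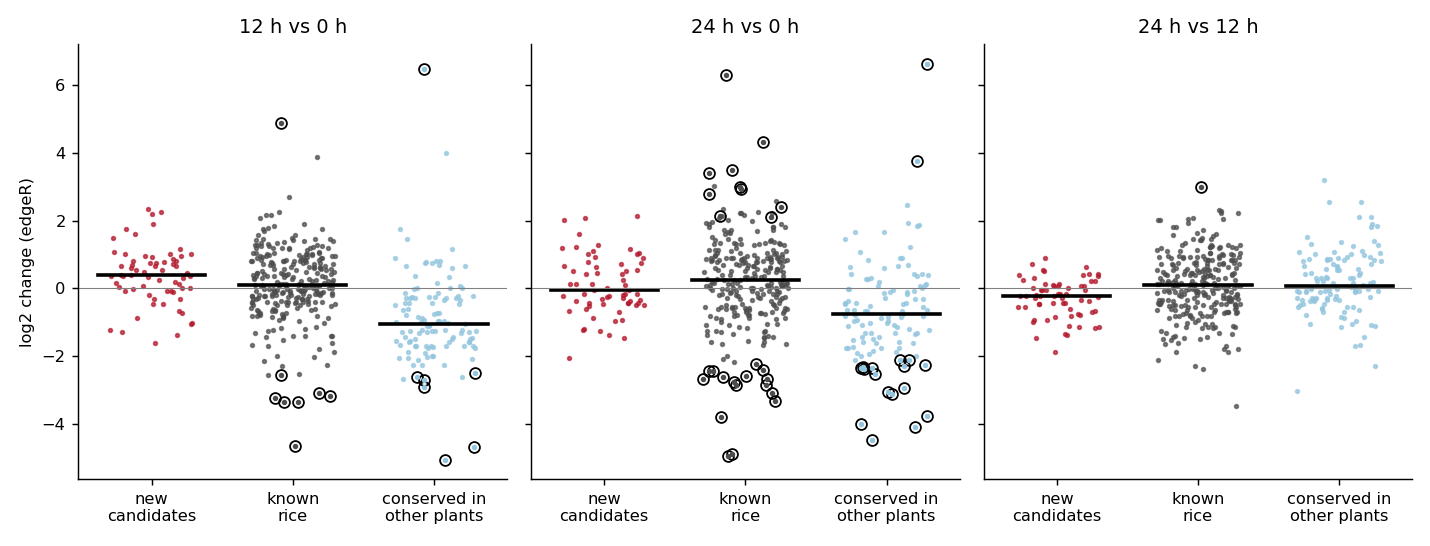
Log2 change per tested sequence (edgeR, vertical axis) in 65 new candidates, 275 known rice miRNAs and 116 conserved miRNAs, for 12 h against 0 h, 24 h against 0 h and 24 h against 12 h; thick lines are class medians and circled points have an adjusted p under 0.05. No candidate is circled, and the candidates run from −2.05 to 2.33 over the 3 comparisons.

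The candidates with the smallest p at 12 h all rest on few reads. PC-3p-92184_30 (chr2:14944681-14944890) had 243 and 64.8 CPM in 12 h leaves, against 52.2 and 28.6 CPM in 0 h leaves. The 12 h libraries were both higher, although the lower of them was 1 read. The fit gave 2.33 ± 1.00 on the log2 scale (SE, adjusted p = 0.22, edgeR's quasi-likelihood test), and 1.05 without 12 h replicate 1. PC-5p-120319_18 (chr2:10393311-10393528) had 216 and 195 CPM in 12 h leaves, against 52.2 and 38.2 CPM in 0 h leaves, or 2.25 ± 0.98 on the log2 scale (adjusted p = 0.22, edgeR). Its 24 h libraries, at 96.3 and 91.1 CPM, lay between the other time points without overlap.

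PC-3p-90458_31 had 94.6 and 130 CPM in 12 h leaves, against 26.1 and 19.1 CPM in 0 h leaves. Again the groups did not overlap, with 2.21 ± 1.15 on the log2 scale (adjusted p = 0.376, edgeR). Before rounding, the 0 h values stood for 1 and 2.5 estimated reads and the 12 h values for 14.5 and 1.5. PC-3p-122643_17, the same sequence shifted by 1 base, had 162 and 64.8 CPM in 12 h leaves, against 156 and 38.2 CPM in 0 h leaves, and its groups overlapped. PC-3p-58891_69 had 514 and 195 CPM in 12 h leaves, against 52.2 and 181 CPM in 0 h leaves (log2 change 1.60 ± 0.82, adjusted p = 0.367, edgeR), and the groups did not overlap, although their nearest libraries stood at 195 and 181 CPM. That change was 0.86 without 12 h replicate 1 and 2.81 without 0 h replicate 3. PC-3p-79062_41, the 3′ arm of the chromosome 6 pair, had 115 and 0 CPM in 12 h leaves, against 443 and 134 CPM in 0 h leaves (−1.61 ± 0.90, adjusted p = 0.42, edgeR), without overlap. Its fitted change was −0.58 without 0 h replicate 1 and −7.50 without 12 h replicate 1, which leaves 12 h with 0 reads. The 5′ partner of PC-3p-79062_41, PC-5p-121551_17, had 122 and 195 CPM in 12 h leaves, against 365 and 181 CPM in 0 h leaves, and of these 4 libraries the arms were furthest apart in 12 h replicate 3, where 1 read is worth 64.8 CPM.

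At 24 h the smallest p belonged to a candidate that was lower than at 0 h. PC-5p-62587_63 (chr2:14279040-14279296) had 60.2 and 150 CPM in 24 h leaves, against 313 and 582 CPM in 0 h leaves, and the groups did not overlap. Its log2 change was −2.05 ± 0.79 (SE, adjusted p = 0.0786, edgeR's quasi-likelihood test). PC-3p-53246_81, which is contained in it, had 397 and 1007 CPM in 24 h leaves, against 730 and 1155 CPM in 0 h leaves, and its groups overlapped.

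PC-3p-66728_56, the relative of osa-miR1862d, had 241 and 80.4 CPM in 24 h leaves, against 26.1 and 38.2 CPM in 0 h leaves. Every heated library was above both 0 h libraries, as the 12 h values were 115 and 130 CPM, but the 0 h values stood for 1 and 4 reads. For 24 h against 0 h this was 2.12 ± 0.97 on the log2 scale (adjusted p = 0.162, edgeR), and 1.20 without 24 h replicate 1. PC-3p-92184_30 had 217 and 107 CPM in 24 h leaves, or 2.07 ± 0.98 on the log2 scale (adjusted p = 0.183, edgeR).

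PC-3p-60387_67 had 277 and 300.0 CPM in 24 h leaves, against 78.2 and 105 CPM in 0 h leaves (1.60 ± 0.84, adjusted p = 0.256, edgeR). The groups did not overlap. Its 12 h libraries, at 372 and 64.8 CPM (55 reads and 1 read), fell on either side of both 0 h libraries. PC-3p-487722_3 had 96.3 and 75.0 CPM in 24 h leaves, against 0 and 28.6 CPM in 0 h leaves, where it had 0 and 3 reads (fitted log2 change 2.02 ± 1.09, adjusted p = 0.264, edgeR). Without 0 h replicate 3, which leaves 0 h with 0 reads, the fitted change was 6.01, which depends on how the fit treats zeros and is no bound. The 5′ partner on the chromosome 4 precursor, PC-5p-270307_5, had 156 and 69.7 CPM in 24 h leaves, against 235 and 76.4 CPM in 0 h leaves.

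Between 24 h and 12 h the 5 candidates with the smallest p were all lower at 24 h. PC-5p-93188_29 (chr3:7774536-7774795) had 48.1 and 48.2 CPM in 24 h leaves, against 176 and 195 CPM in 12 h leaves (−1.88 ± 0.89, adjusted p = 0.526, edgeR). Its 0 h values, 78.2 and 95.5 CPM, lay between, and no time points overlapped. PC-5p-110760_21, which shares 15 bases with a listed miR814 sequence, had 265 and 161 CPM in 24 h leaves, against 595 and 454 CPM in 12 h leaves (−1.35 ± 0.77, adjusted p = 0.704, edgeR), and these groups did not overlap. PC-3p-85855_35 had 12.0 and 150.0 CPM in 24 h leaves, against 311 and 130 CPM in 12 h leaves, and PC-5p-55970_75 had 48.1 and 166 CPM, against 135 and 584 CPM. Both pairs of groups overlapped. The fifth was PC-5p-120319_18, given above. The authors' deposited table lists an analysis of variance p under 0.05 for 3 of the 73 candidates, PC-5p-93188_29, PC-3p-487722_3 and PC-5p-120319_18. It was computed from the same 6 libraries and is no separate evidence. The share of the whole list under 0.05 was not counted here, so 3 of 73 has no background beside it.

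**Figure D4:**
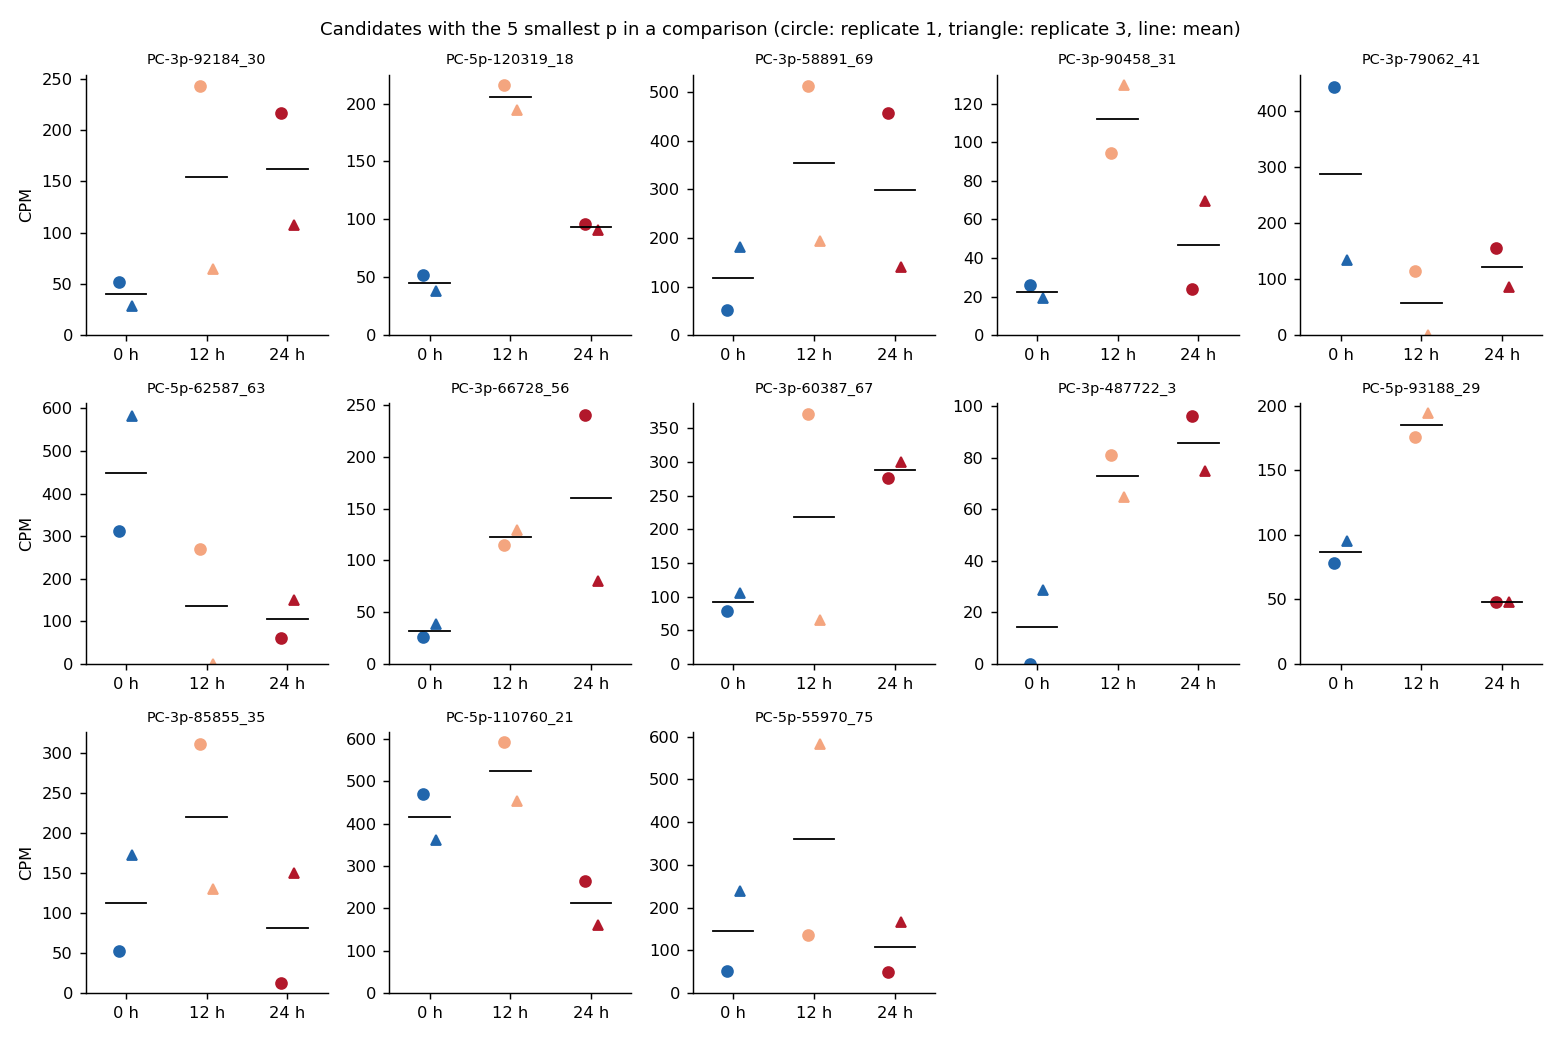
Level in CPM (vertical axis, from 0) at 0, 12 and 24 h of the 13 candidates that had one of the 5 smallest p in a comparison; circles are replicate 1, triangles replicate 3 and lines the mean of the 2 libraries. In PC-5p-62587_63 both 24 h libraries (60.2 and 150 CPM) lie below both 0 h libraries (313 and 582 CPM). In PC-5p-93188_29 the 3 time points are separate, on 3 to 26 reads per library.

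Targets of the candidates had little degradome signal. The 65 rows, several of which are isoforms of a gene with the same reads, reduce to 50 pairs of candidate and locus, and 51 of the 73 candidates had no row. Sites are ranked in such tables from category 0, the highest position of the transcript, to category 4, a single read. The best category in any library was 0 for 1 pair, 2 for 18, 3 for 1 and 4 for 30. Categories 0 to 2 were reached by 38.0% of candidate pairs, against 58.3% of the 860 pairs of known and conserved miRNAs, and category 0 by 2.0% against 25.1%. The site never held more than 1 read in 60.0% of candidate pairs, against 39.3% of the others. The authors' deposited table gives a site p-value under 0.05 for 2 of the 50 pairs and for 242 of the 860. Pairs of one candidate or one transcript are not independent, and no test was run between the classes.

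The predicted position followed the usual rule in most rows, for the candidates as for the other listed miRNAs. The site lay opposite base 10 of the candidate in 60 of 65 rows, opposite base 9 in 4 and opposite base 11 in 1, which the search itself may require. Among the 1364 rows of known and conserved miRNAs these numbers were 1195, 69 and 100. Rows include isoforms of one locus. Alignment scores, where lower means fewer mismatches, ran from 1 to 4, and 27 of the 50 pairs had the highest listed score of 4. The 4 pairs with a score of 2 or less had no more than 1 read in any library. They were PC-5p-117611_18 with the cyclin A1;1 locus LOC_Os12g20324 (score 1, 1 read at 0 h), PC-3p-38054_125 with LOC_Os02g08010, PC-3p-55618_76 with LOC_Os02g45225 and PC-3p-55618_76 with LOC_Os05g03610. LOC_Os02g08010 is annotated after the Arabidopsis calcium pump ACA8, and LOC_Os05g03610 after phospholipase C 2, an enzyme of phosphoinositide signalling.

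Reads were found at 31 pairs at 0 h, 28 at 12 h and 22 at 24 h, and 11 pairs had reads in all 3 libraries, 9 in 2 and 30 in 1. The libraries held 12554074, 11033581 and 12960708 raw reads, so depth was similar. With 1 library per time point no difference between them has a replicate check, and the intervals below are exact Poisson 95% intervals. Counting each set of reads once, the sites held 229, 66 and 98 reads at 0, 12 and 24 h. Without the single strongest set they held 62, 28 and 44.

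That set belonged to PC-5p-111336_20. The 0 h library had 167 reads (143 to 194), the 12 h library 38 (26.9 to 52.2) and the 24 h library 54 (40.6 to 70.5), listed alike for LOC_Os04g16832, LOC_Os05g22718, LOC_Os08g15278 and LOC_Os09g19954. The read numbers were identical at the 4 loci and the authors divided them by 4, which leaves 1 set of reads that could not be placed. The site was in category 2 in all 3 libraries, with an alignment score of 4. The authors' deposited site p-values were 0.978, 0.971 and 0.973 at 0, 12 and 24 h, the same at each locus. The 0 h library was above both heated ones beyond counting error. The candidate itself had 313 and 554 CPM in 0 h leaves, 770 and 259 CPM in 12 h leaves, and 217 and 429 CPM in 24 h leaves, with overlapping time points. None of the 4 loci is annotated in the table. No genome was used here, so whether these loci, or the candidates from chromosomes 10 and 2, are nuclear copies of organelle sequence or pieces of ribosomal or transfer RNA was not tested.

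PC-3p-68026_54 and PC-3p-85855_35, which share a seed, were both assigned position 1515 of LOC_Os02g46510 and thus the same reads, which were 14 in the 0 h library (7.65 to 23.5), 1 in the 12 h library (0.0253 to 5.57) and 2 in the 24 h library (0.242 to 7.22). The 0 h interval lies above both of the others. The alignment score was 4 for both candidates, and the site was in category 2 at 0 h, 4 at 12 h and 2 at 24 h. The authors' deposited site p-values for PC-3p-85855_35 were 0.996 at 0 h and 0.995 at 24 h, and those for PC-3p-68026_54 were no lower. Position 2214 of LOC_Os01g55410 was also shared by both candidates, with 1 read at 12 h.

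The amino acid permease locus LOC_Os12g08090 (AAP2, whose Arabidopsis namesake moves amino acids between xylem and phloem) carried sites of 2 related candidates 6 bases apart. The site of PC-3p-55618_76 at position 1583 had 9, 4 and 7 reads at 0, 12 and 24 h. The site of PC-3p-66728_56 at position 1589 had 8, 1 and 7 reads. The offset of 6 bases equals the shift between the candidates' sequences, since base 1 of PC-3p-55618_76 aligned with base 7 of PC-3p-66728_56. The counting intervals of the 3 libraries overlapped at both positions. PC-3p-66728_56 itself had its lowest levels at 0 h, as given above, and PC-3p-55618_76 had 52.2 and 181 CPM in 0 h leaves, 149 and 0 CPM in 12 h leaves, and 48.1 and 198 CPM in 24 h leaves.

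The sole category 0 site was that of PC-3p-55618_76 on LOC_Os05g15510, at position 1672, with 1 read at 0 h, 0 at 12 h and 7 at 24 h (2.81 to 14.4). The authors' deposited p-value there was 0.0286 at 24 h. The other pair under 0.05 in the authors' deposited table was PC-3p-487722_3 with LOC_Os12g15420, with 2 reads at 12 h, none in the other libraries and a p-value of 0.045. Neither locus has a function in the table.

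The other sites in category 2 held 2 to 4 reads at most in any library. Among them were those of PC-3p-34870_138 on LOC_Os01g63290 (PHT4;3, a phosphate transporter; 0, 1 and 2 reads at 0, 12 and 24 h) and of PC-3p-68026_54 on the protein kinase locus LOC_Os12g41710 (1, 2 and 4 reads). PC-3p-55618_76 had 2, 0 and 2 reads on LOC_Os02g02980, annotated as a MATE efflux transporter, and 0, 2 and 0 on LOC_Os03g60920. PC-5p-60996_66 had 0, 1 and 2 reads on LOC_Os06g12660. PC-5p-111336_20 had 4, 0 and 3 reads on LOC_Os03g06680. PC-5p-424393_3, PC-3p-405233_4, PC-3p-34870_138 and PC-5p-111336_20 each had a further site with at most 2 reads, on LOC_Os10g40830, LOC_Os02g50860, LOC_Os06g24594 and LOC_Os02g03260.

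**Figure D5:**
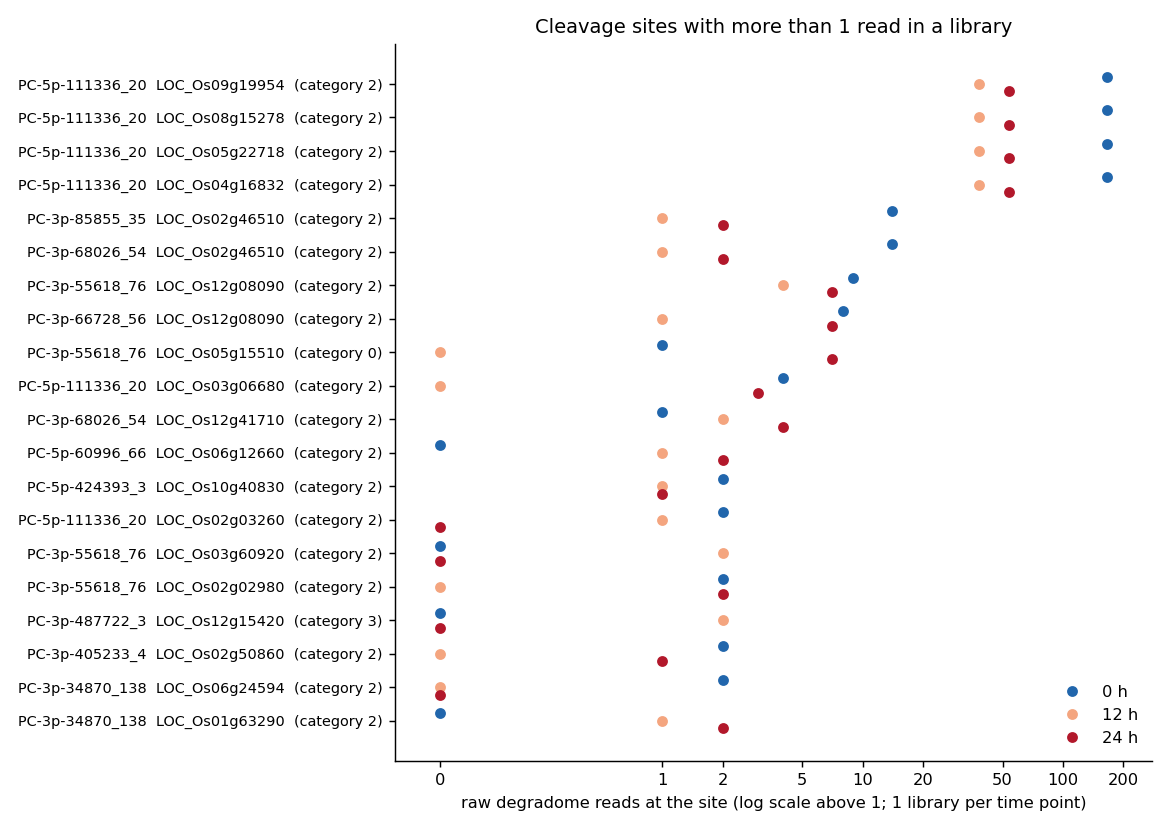
Raw degradome reads (horizontal axis, logarithmic above 1) at the predicted site of the 20 candidate and locus pairs with more than 1 read in a library, at 0, 12 and 24 h with 1 library each. The 4 upper rows repeat 1 set of reads (167, 38 and 54), and only 1 row is in category 0.

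Some loci were also listed for known miRNAs. At LOC_Os04g46860, a GRAS transcription factor annotated after Arabidopsis HAM3, which miR171 cleaves there, PC-5p-93188_29 had 1 read at 12 h at position 104 and none in the other libraries. The site listed for osa-miR171b in the same transcript, at position 1337, had 152, 59 and 88 reads at 0, 12 and 24 h. At LOC_Os07g45350, an E3 ubiquitin ligase locus, PC-3p-183140_9 shared position 1376 and its 1 read at 12 h with a listed miR5788 sequence, and sites of miR814 sequences lay 4 bases away. At LOC_Os02g30730, annotated after the Arabidopsis splicing protein DOT2, the site of PC-3p-226216_7 had 1 read at 0 h and lay 4 bases from that of osa-miR1862e.

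The remaining annotated loci had single reads. PC-5p-60996_66 was paired with LOC_Os08g07440 (AIL5, an AP2-type developmental regulator) and the kinase locus LOC_Os04g54790. PC-5p-93188_29 was paired with LOC_Os10g27050 (PP2A-3, a protein phosphatase subunit). PC-5p-111336_20 was paired with the disease resistance locus LOC_Os11g11810, and PC-3p-66728_56 with the receptor kinase locus LOC_Os07g36570. PC-3p-67300_55 was paired with LOC_Os03g40650 (TAF8, a part of the general transcription machinery). Annotations stood beside 21 of the 47 loci, and 12 of the 22 candidates with a row had no site above 1 read.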

How the data were processed

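Per the labels' protocols, RNA bands of 15 to 30 nt were cut from a gel and ligated to adaptors. The mapper, the miRNA prediction tool, the target finder and the genome build were named by no source used here. The authors deposited small RNA reads per sequence as estimated counts, since 66.9 to 75.2% of values per library were whole (tolerance 1e-06), next to a normalized signal, in which 1 constant scales each library. They also deposited a fold table per precursor with a percent of guanine and cytosine and an index score. Degradome sites were deposited with their read count, those reads split over transcripts that match equally well, a signal scaled to library reads, a category score, an alignment score and a p-value.

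Each sequence was used once and its estimated counts were rounded to whole numbers, because the planned count test needs them. Those with 10 reads or more in 2 or more libraries entered edgeR 4.0.16 in R 4.3.3 (TMM scaling, quasi-likelihood test, 2-sided, Benjamini-Hochberg over all tested sequences, threshold 0.05). DESeq2 1.42.0 was an alternative. The prior degrees of freedom were infinite, so SE and p rest on a spread shared over all sequences, and p-values measure only the spread between these samples. The fitting code was tested on simulated data. Shares were compared by exact permutation. Pairing of arms was read from the deposited folds. Of the 47 target loci, 0 matched the RefSeq gene table, so names are the authors'.

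Named items were drawn from the 10 most abundant candidates, the 5 smallest p per comparison, candidates with a degradome row, those sharing sequence or seed with listed miRNAs, and pairs of arms. The planned seed rule asked for a listed rice miRNA of at least 1000 reads. Not every candidate with a degradome row, a shared sequence or a listed partner arm is named. Target values are given for sites of 10 or more reads or categories 0 to 2. A few single-read sites, the relatives of named candidates and the loci shared with listed miRNAs were chosen after their values were seen. Members and lists were chosen with earlier results of these data known.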

Additional observations from a re-analysis of the deposited data

How the results depend on the processing

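The 3 comparisons of candidates were refitted under 15 alternatives each (other scalings, DESeq2, other filters, candidates alone, the replicate block, each library left out, and only the time points compared), 45 fits in all, and no fit called a candidate, although DESeq2 at 24 h against 0 h gave 36 of 65 no adjusted p. The smallest adjusted p of a candidate ran from 0.13 to 0.755 at 12 h against 0 h, from 0.0527 to 0.492 at 24 h against 0 h, and from 0.184 to 0.9 at 24 h against 12 h. The labels state no pairing by replicate number. Deviations of same-numbered libraries correlated at −0.13, 0.14 and −0.19, which with so few reads cannot exclude a shared origin. With the replicate block, candidates past the threshold stayed at 0 in each comparison, while calls over all sequences went to 7, 29 and 0, against 15, 44 and 1 without it. Over the alternatives fitted to the whole list such calls ran from 0 to 15, from 8 to 60 and from 0 to 3. Changes of single candidates were recomputed for the 5 smallest p per comparison and for PC-3p-38054_125 against 0 h, 17 in all, and these kept their direction in every alternative that could be fitted. Their size was less stable. Leaving out 1 library moved 8 of the 17 by over 1.5 times, and 6 of these are given beside their values. The other 2 are at 24 h against 12 h, where PC-3p-85855_35 (−1.47 with all libraries) ran from −4.26 without 24 h replicate 3 to −0.59 without 12 h replicate 1, and PC-5p-55970_75 (−1.36 with all libraries) from −2.57 without 24 h replicate 3 to −0.25 without 12 h replicate 3.

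The candidates' median minus that of all sequences ran from 0.18 to 0.50 at 12 h against 0 h, from −0.11 to 0.11 at 24 h against 0 h and from −0.39 to −0.17 at 24 h against 12 h. Taking the 3 most abundant sequences out of the totals moved the median of all sequences to 0.22 at 12 h, and the authors' constants moved it to 0.28 at 24 h against 12 h, where the candidates' median was then 0.04.

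The difference in the candidates' share of listed reads at 24 h against 0 h turned to 0.0405 percentage points without the 3 most abundant sequences, from −0.41. Leaving out 1 library in turn gave −0.499 to −0.322 points there and 0.178 to 0.553 points at 12 h. For the share of candidate reads in sequences of 23 or 24 nt, leaving out 1 library gave −4.93 to 16.5 points at 12 h and −5.23 to 11.1 points at 24 h. It was below 0 h without 12 h replicate 3 (−4.93), without 0 h replicate 3 (−2.29) and without 24 h replicate 1 (−5.23). The cause was not tested.

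Pairs of candidate and locus with reads numbered 31, 28 and 22 at 0, 12 and 24 h. In categories 0 to 2 they were 14, 7 and 14, and with an alignment score of at most 3 they were 11, 3 and 3. With at least 1 divided read they stayed within 1.5 times. These are not separate sites. The shared set of reads of PC-5p-111336_20 counts as 4 pairs among the 31, 28 and 22 and among the 14, 7 and 14. Reads shared by 2 candidates at position 1515 of LOC_Os02g46510 also count more than once. Depth limits every level here, above all in 12 h replicate 3, where 3 reads equal 195 CPM.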
